A study of Saccharomyces cerevisiae with 279 samples.

Results

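The transcripts followed here belong to 10 budding yeast genes, *MET3*, *MET14*, *MET16*, *MET10*, *MET2*, *MET6*, *MET13*, *SAM1*, *SAM2* and *MUP1*. They were chosen by symbol in the deposited annotation, for their place in sulfate assimilation and methionine metabolism, and they are 10 of 5906 nuclear protein-coding transcripts. Each was measured in all 91 lysates. The study asked which mRNAs condense during stress and which escape. It answered with Sed-seq, in which a lysate is spun and RNA is sequenced from the Total, the supernatant and the pellet. The proportion of a transcript in the supernatant is called pSup. Polysome-seq added libraries of ribosome-free and ribosome-bound mRNA from sucrose gradients.

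Most lysates came from BY4741, a haploid MATa laboratory strain that carries deletions of *URA3*, *LEU2*, *HIS3* and *MET15* and was grown in synthetic complete medium (SCD) at 30°C. *MET15* is another name of *MET17*, the enzyme that builds homocysteine from sulfide. BY4741 therefore cannot complete the route from sulfate to methionine and takes up methionine from the medium. The treatments were dithiothreitol (DTT) at 10 mM for 15 min, and sodium azide at 0.5% or 0.8% for 30 min in medium at pH 6.8. Others were ethanol at 5, 7.5, 10 or 15% for 15 min, and heat at 42°C or 46°C for 10 min. Cycloheximide (CHX), which stalls elongating ribosomes, was given at 100 µg/mL for 10 min before cells were held at 30°C or heated. A second set of 46°C and 30°C lysates received *Schizosaccharomyces pombe* RNA as a spike-in. The eIF3b and eIF4E experiments used MATα strains grown in YPD, with intact *MET15* and deletions of *LYS2*, *URA3* and *HIS3*. They carried an inducible TIR1 ligase gene at *LEU2*. β-estradiol induced the ligase, and auxin then removed the degron-tagged factor for 2 h. Mock cells received solvent in place of β-estradiol. Effects of β-estradiol and of the ligase cannot be told apart from loss of the factor. A further 7 untreated strains carried fluorescent reporters with hairpins or upstream reading frames in the leader, and were listed as MATa with *MET15* deleted, which the counts given below go against. Groups had 2 lysates, but the reporter strains and the 42°C samples with and without cycloheximide had 1. Both doses of azide had mock lysates of their own, whereas 5% and 10% ethanol shared theirs, as did 42°C and 46°C within each heat experiment.

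Yeast makes methionine in 3 blocks of reactions. Sulfate is activated and reduced to sulfide, sulfide is joined to a 4-carbon skeleton to give homocysteine, and homocysteine is methylated to methionine. Methionine is then turned into S-adenosylmethionine, the methyl donor of the cell, and methionine from outside enters through permeases. Many of these genes are activated by Met4 when sulfur-containing amino acids run short and are repressed when methionine is plentiful. DTT is a thiol that reduces disulfide bonds, and azide blocks respiration.

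The members lie on 9 chromosomes of the R64-3-1 build. *MET3* (YJR010W, chromosome X, 456239 to 457774, plus strand) encodes ATP sulfurylase, which activates sulfate. *MET14* (YKL001C, chromosome XI, 438777 to 439385, minus strand) encodes the kinase of the second activation step. *MET16* (YPR167C, chromosome XVI, 876847 to 877632, minus strand) encodes the reductase that forms sulfite, and *MET10* (YFR030W, chromosome VI, 213312 to 216419, plus strand) encodes a subunit of sulfite reductase. *MET2* (YNL277W, chromosome XIV, 117349 to 118809, plus strand) encodes homoserine O-acetyltransferase, which supplies the carbon skeleton. *MET6* (YER091C, chromosome V, 339864 to 342167, minus strand) encodes methionine synthase, and *MET13* (YGL125W, chromosome VII, 272520 to 274322, plus strand) encodes the methylenetetrahydrofolate reductase that provides its methyl group. *SAM1* (YLR180W, chromosome XII, 515262 to 516410, plus strand) and *SAM2* (YDR502C, chromosome IV, 1453310 to 1454464, minus strand) encode S-adenosylmethionine synthetases. They are close paralogs, so reads that fit both were divided between them by the quantification and the split between the pair is uncertain. *MUP1* (YGR055W, chromosome VII, 599417 to 601141, plus strand) encodes the high-affinity methionine permease.

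The genotype was visible in the counts of *MET17* and *LYS2*, but not in those of *HIS3*. *MET17* had 0 to 5 counts in 54 BY4741 Total libraries and 0 in the 6 of the heat Sed-seq experiment. It had 325 to 1892 counts in the 24 libraries of the depletion strains, where *LYS2* in turn had 0 to 4. The 7 reporter libraries had 2224 to 3827 counts of *MET17*, 0 to 2 of *LYS2* and 12115 to 20690 of *MF(ALPHA)1*, a pheromone gene of α cells, against the genotype listed for them. In the 6 heat Sed-seq libraries the a-cell pheromone genes *MFA1* and *MFA2* were at 0. Each had over 100 counts in every other BY4741 Total library. The heat libraries were single-end, and the study quantified them on coding sequences with a set fragment length. That length exceeds both coding sequences (chromosome IV, 1385176 to 1385286, and XIV, 352414 to 352530), so these zeros cannot tell the mating type. The cause of the zeros was not tested. In the same 6 libraries the α-cell genes *MF(ALPHA)1* and *MF(ALPHA)2* each had 0 to 2 counts. The depletion strains, which are MATα, had 3776 to 12322 counts of *MF(ALPHA)1*. Total libraries held 2222970 to 30761624 counts on nuclear mRNAs (median 10267971).

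Outside the heat Sed-seq experiment, unstressed BY4741 expressed the late steps above the early ones by median level. Over the 22 control lysates outside the heat Sed-seq experiment, *MET6* had a median of 684 TPM (a read share per transcript length, scaled to a fixed library total), with a range of 421 to 1231. *SAM2* followed at 379 TPM (155 to 515) and *SAM1* at 245 TPM (137 to 574). *MET13* had a median of 98.2 TPM (48.7 to 149.7) and *MUP1* one of 52.2 TPM (37.2 to 104.4). The sulfate genes lay lower, with medians of 27.7 TPM for *MET14*, 17.4 TPM for *MET10*, 13.7 TPM for *MET3* and 8.83 TPM for *MET16*. *MET2* was the lowest member, at a median of 0.993 TPM (0.104 to 5.43), and rested on as few as 4 counts in a library. Between neighbours in this order the ranges overlapped in every case. These levels are a description over lysates from many experiments.

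**Figure D1:**
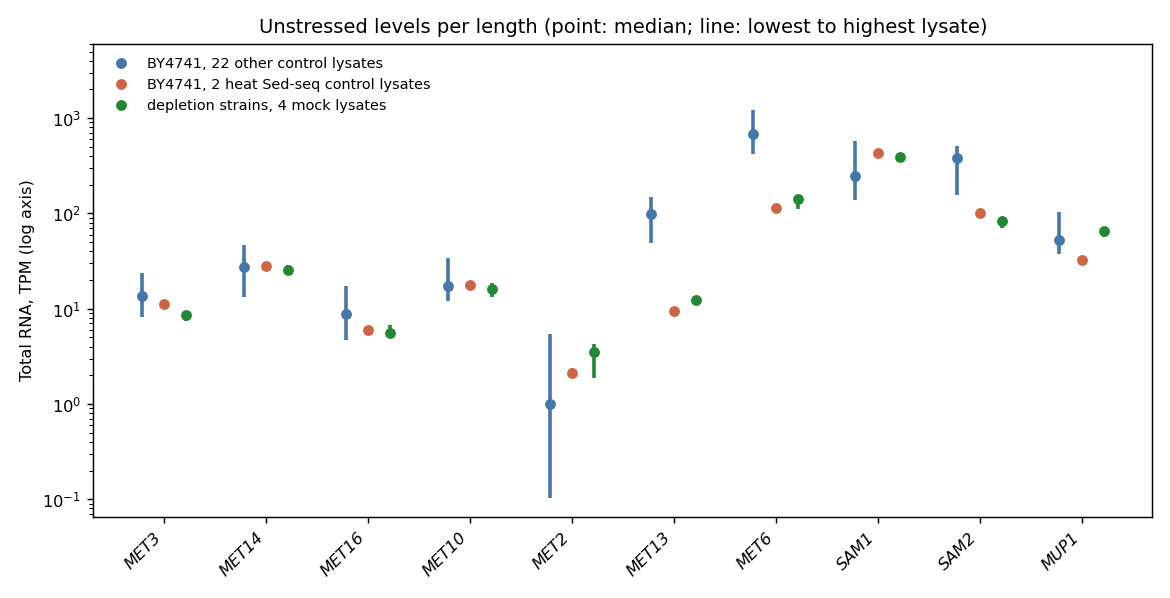
Total level of each member in TPM (log axis) in 3 sets of unstressed lysates, with the median as a point and the lowest to highest lysate as a line. *MET6*, *MET13* and *SAM2* were lower in the heat Sed-seq controls and in the depletion mocks than in any of the 22 other BY4741 control lysates.

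*MET6*, *MET13* and *SAM2* were lower in the heat Sed-seq controls and in the depletion mocks. *MET6* stood at 110 to 115.95 TPM in the 2 unheated lysates of the heat Sed-seq experiment and at 110 to 153 TPM in the 4 depletion mocks, below all 22 other BY4741 controls. *MET13* stood at 8.69 to 10.4 TPM and 11.1 to 13.3 TPM in these sets, and *SAM2* at 99.5 to 100.7 TPM and 69.9 to 85.3 TPM. *MUP1* was below the other controls in the heat Sed-seq set only (30.4 to 34.7 TPM). *SAM1* had medians of 427 and 387 TPM there, inside the range of the other controls. The *SAM2* level was thus above *SAM1* in the median of the 22 controls and below it in both other sets. In the heat Sed-seq set the medium was labelled as SCD, as in the other BY4741 lysates, and the libraries were sequenced single-end. In the depletion set the strain, mating type, medium and *MET17* status all differed. These differences cannot be told apart as sources of the levels, and no test was made between the sets. The libraries labelled as the 7 reporter strains, with *MET17* expressed, had a median of 347 TPM of *MET6*, 337 TPM of *SAM2*, 112.03 TPM of *SAM1* and 46.4 TPM of *MET13*.

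DTT lowered the transcripts of the late steps and of the permease. *MET6* had 2684 and 2371 CPM (counts on nuclear mRNAs scaled to a fixed library total) in the mock lysates and 927 and 874 CPM after DTT. This was a 2.81-fold fall (log2 −1.49, SE 0.06, adjusted p = 1.21e-08, edgeR). *SAM2* had 917 and 933 CPM in mock and 448 and 481 CPM after DTT (log2 −0.99, SE 0.05). *SAM1* went from 429 and 418 CPM to 250 and 240 CPM (log2 −0.79, SE 0.04). *MET13*, the source of the methyl group used by Met6, had 253 and 226 CPM in mock and 146 and 147 CPM after DTT (log2 −0.71, SE 0.06). *MUP1* went from 238 and 225 CPM to 143 and 145 CPM (log2 −0.69, SE 0.05). Each of these 5 calls held whichever lysate was left out.

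The sulfate genes did not move in one direction under DTT. *MET3* had 24.2 and 27.6 CPM in mock and 30.9 and 32.7 CPM after DTT (log2 0.31, SE 0.09, adjusted p = 0.0159), a rise that was lost without mock lysate 1 (adjusted p = 0.163), without DTT lysate 2 (0.0629) and with DESeq2 (0.172). *MET14* fell from 25.8 and 28.2 CPM to 19.7 and 21.4 CPM (log2 −0.38, SE 0.10, adjusted p = 0.00631), and was not called with DESeq2 (adjusted p = 0.0782). *MET10* fell from 103.8 and 103.6 CPM to 87.6 and 87.7 CPM (log2 −0.24, SE 0.05). *MET16* had 7.55 and 9.12 CPM in mock against 8.51 and 6.96 CPM, and *MET2* had 2.04 and 3.04 CPM against 1.81 and 1.60 CPM. Neither passed the test.

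Of the 10 members, 1 rose, 7 fell and 2 were not called under DTT, with a median log2 change of −0.62. Over all 5549 transcripts tested, 51.6% were called, 24.9% higher and 26.7% lower, and the median was 0.01. Of the other genes of the pathway, a list of 40 with 38 tested, 12 rose and 9 fell. The largest rises were in *SUL2*, a sulfate permease (11.4 and 8.33 CPM to 19.7 and 20.0 CPM, log2 0.98), in *GSH1*, the first enzyme of glutathione synthesis (95.5 and 97.7 CPM to 155.7 and 162.9 CPM, log2 0.72), and in *SOA1* (log2 0.67). The largest falls were in *MMP1* and *SAM3*, permeases for S-methylmethionine and S-adenosylmethionine (log2 −0.71 and −0.62), and in *MET5*, the other subunit of sulfite reductase (129 and 139 CPM to 90.8 and 87.3 CPM, log2 −0.59).

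**Figure D2:**
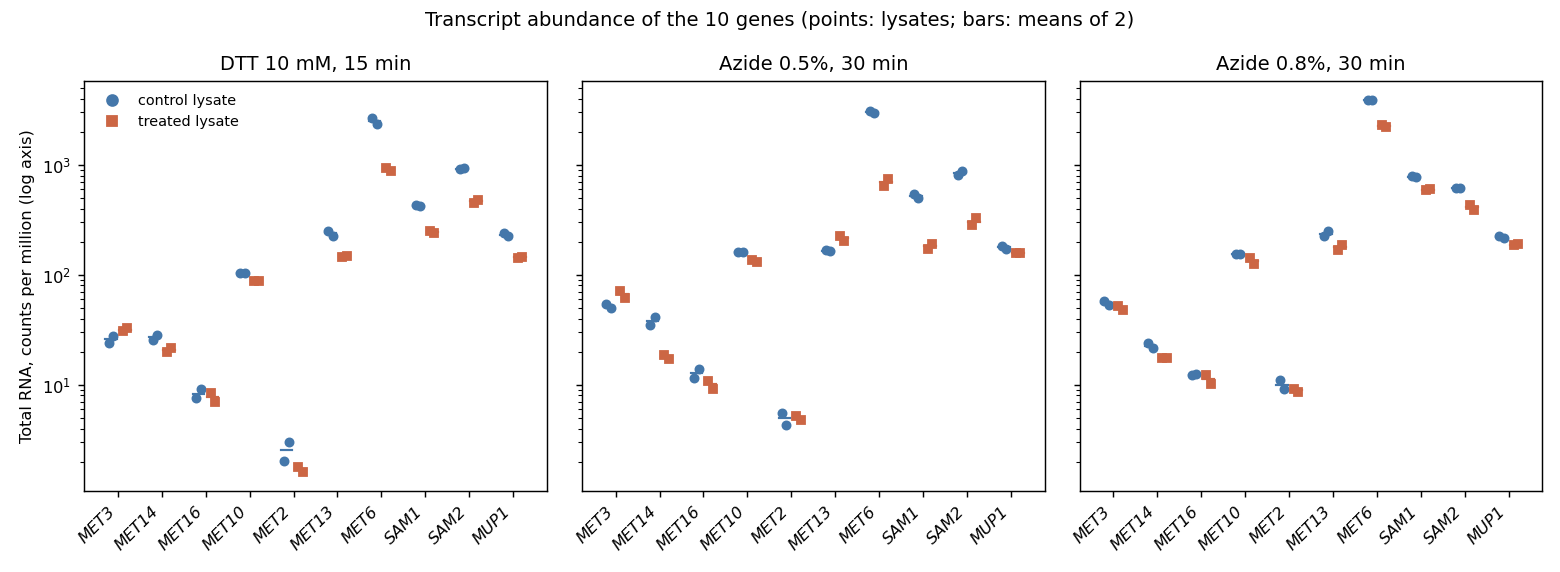
Total abundance of each member in every lysate, in CPM (log axis), for DTT and both azide doses with their own control lysates. *MET6*, *SAM1* and *SAM2* were lower in both treated lysates than in both controls in all 3 experiments, and *MET13* was higher after 0.5% azide but lower after 0.8%.

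Azide at 0.5% lowered methionine synthase and the S-adenosylmethionine synthetases. *MET6* had 3092 and 2990 CPM in mock and 648 and 740 CPM after azide, a 4.38-fold fall (log2 −2.13, SE 0.07, adjusted p = 4.71e-09). *SAM1* went from 539 and 496 CPM to 172 and 191 CPM (log2 −1.51, SE 0.07) and *SAM2* from 803 and 883 CPM to 281 and 327 CPM (log2 −1.47, SE 0.08). *MET14* fell from 35.2 and 41.5 CPM to 18.6 and 17.1 CPM (log2 −1.10, SE 0.13). *MET10* fell by 0.27 on the log2 scale (SE 0.06). These falls came where 34.5% of 5562 transcripts were called lower (edgeR).

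At 0.5% azide 2 members rose. *MET13* had 169 and 164 CPM in mock and 226 and 203 CPM after azide (log2 0.37, SE 0.07, adjusted p = 0.000872). *MET3* had 54.4 and 49.6 CPM against 70.98 and 62.1 CPM (log2 0.36, SE 0.09, adjusted p = 0.00559), and this call was lost without mock lysate 2 (adjusted p = 0.0548) and with DESeq2 (0.0627). *MUP1* had 184 and 174 CPM in mock and 158 and 160 CPM after azide (log2 −0.17, adjusted p = 0.0336), with adjusted p = 0.229 without mock lysate 1, 0.0546 without mock lysate 2 and 0.0938 with DESeq2. *MET16* and *MET2* were not called. In all, 2 members rose, 6 fell and 2 were not called, where 36.8% of 5562 transcripts were called higher and 34.5% lower (71.4% either way). Of 37 other pathway genes tested, 8 rose and 14 fell. *SAH1*, which clears the by-product of methylation, fell from 2842 and 2737 CPM to 616 and 666 CPM (log2 −2.12), *MET5* fell by 1.42 and *ADO1*, the adenosine kinase, by 1.01 on the log2 scale. *MET1*, which makes the siroheme cofactor of sulfite reductase, rose from 16.3 and 14.8 CPM to 45.7 and 42.5 CPM (log2 1.51), ahead of the permease genes *MUP3* (1.34) and *YCT1* (1.09).

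At 0.8% azide 7 members fell. *MET6* had 3914 and 3910 CPM in mock and 2288 and 2211 CPM after azide (log2 −0.80, SE 0.06, adjusted p = 0.000162). *SAM2* went from 612 and 610 CPM to 429 and 391 CPM (log2 −0.57, SE 0.06) and *SAM1* from 787 and 772 CPM to 590 and 604 CPM (log2 −0.39, SE 0.06). *MET13* had 225 and 249 CPM in mock and 169 and 187 CPM after azide (log2 −0.41, SE 0.08, adjusted p = 0.00549), the opposite direction to that at 0.5%. The 2 doses were separate experiments with separate mocks, and the difference between them was not tested. *MET14* (log2 −0.36), *MET10* (−0.23) and *MUP1* (−0.22) were also called lower. Each of these 3 calls was lost when either mock lysate was left out, with adjusted p of 0.169 and 0.0596 for *MET14*, 0.149 and 0.14 for *MET10*, and 0.151 and 0.0609 for *MUP1*. The call of *MET14* was also lost without azide lysate 1 (0.0538) or 2 (0.0611) and with DESeq2 (0.0638), that of *MET10* without azide lysate 2 (0.19) and that of *MUP1* without azide lysate 1 (0.0664). The members counted 0 higher, 7 lower and 3 not called, against 21.3% higher and 19.1% lower of 5677 transcripts (40.5% either way). Of 39 other pathway genes tested, 6 rose and 6 fell. *MET5* fell from 211 and 193 CPM to 107.1 and 95.5 CPM (log2 −0.99), *SAH1* by 0.86 and *SAM3* by 0.44, while *SUL1*, the other sulfate permease (1.159), and the regulators *MET32* (1.13) and *MET30* (0.55) rose.

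The Total libraries of the 0.8% azide Polysome-seq experiment were a separate experiment with its own mocks. There 9 members were lower, none was higher and *MET2* was not called, against 23.2% higher and 20.8% lower of 5667 transcripts (44% either way). *MET6* had 4321 and 4480 CPM in mock and 3295 and 3262 CPM after azide. *MET14* had the largest change among the members (20.3 and 20.4 CPM to 15.6 and 12.8 CPM, log2 −0.51, SE 0.10). *MET13* was again lower (364 and 350 CPM to 320 and 288 CPM, log2 −0.23, SE 0.05, adjusted p = 0.00357). The *MET3* call (log2 −0.26) was lost without mock lysate 2 (adjusted p = 0.12), and that of *MET16* (log2 −0.34) without mock lysate 1 (0.0683), mock lysate 2 (0.098) or azide lysate 2 (0.073) and with DESeq2 (0.0744).

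Sedimentation was compared as escape, the change in a transcript's log-odds of pSup after subtracting the mean of transcripts of similar length in the same lysate. It is given in units of σ, the standard deviation over the control transcripts. A negative score means a shift towards the pellet relative to transcripts of that length, not a level below theirs. Unstressed, the abundant members were more soluble than their length class. The length-centred pSup of *MET6* had a median of 2.04 σ over 18 BY4741 control lysates (1.09 to 2.82), and was above 0 in 18 of 18. *SAM1* (median 1.77 σ), *SAM2* (1.53 σ) and *MET13* (1.23 σ) were likewise above 0 in 18 of 18. *MET16* had a median of −0.84 σ and *MET10* one of −0.51 σ, with 3 and 6 lysates above 0.

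No member changed its escape detectably under DTT. The median pSup of all transcripts was 0.875 and 0.902 in mock and 0.889 and 0.881 after DTT. *MET6* had pSup of 0.875 and 0.908 in mock against 0.895 and 0.891, and the members' scores ran from −0.90 σ for *MET14* (SE 0.31, adjusted p = 0.135, limma) to 0.24 σ for *SAM2* (SE 0.12, adjusted p = 0.358). Over 5034 transcripts, 2.22% were called. At an unadjusted p under 0.05 (limma), 3 of 10 members and 683 of the 5034 transcripts passed.

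**Figure D3:**
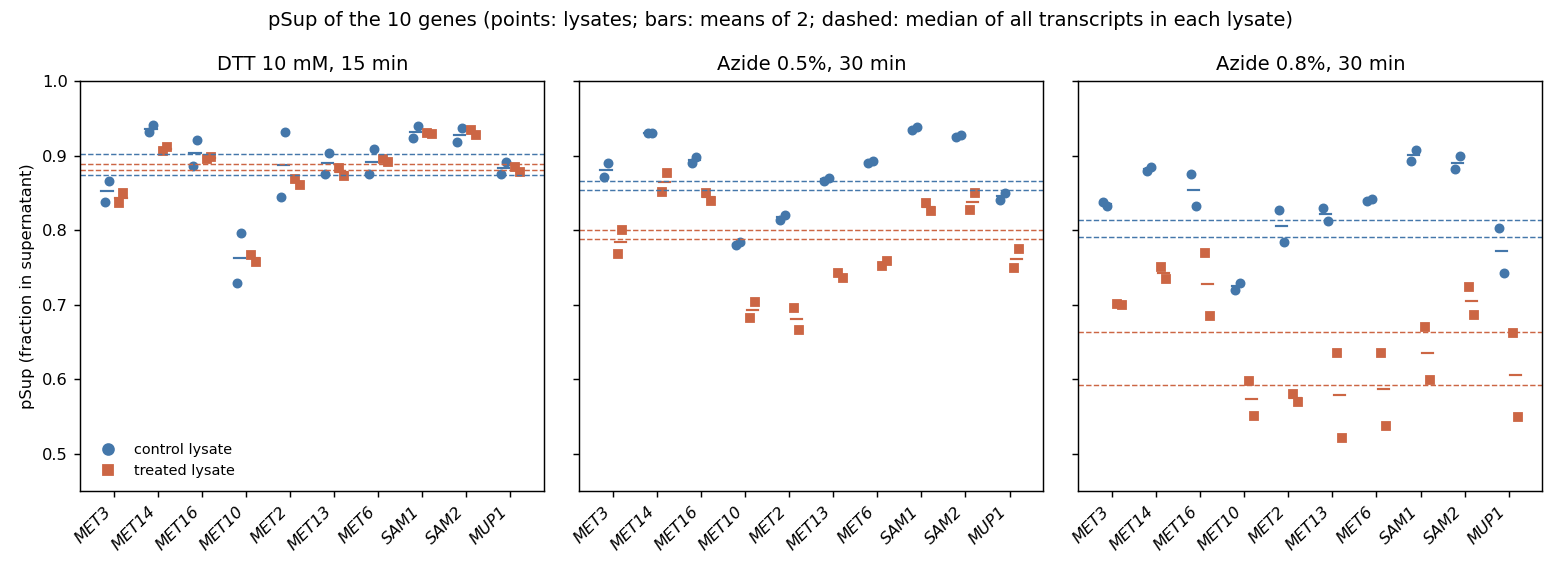
pSup of each member in every lysate under DTT and both azide doses, with the median of all transcripts of each lysate as dashed lines. In both azide experiments *MET6* and *MET13* lay above the median of the same lysate in mock and below it after azide.

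Azide moved the abundant members into the pellet more than transcripts of their length. At 0.5% the median pSup of all transcripts went from 0.854 and 0.866 in mock to 0.788 and 0.800. *MET6* went from 0.889 and 0.893 to 0.751 and 0.759, an escape score of −1.57 σ (SE 0.11, adjusted p = 4.47e-06). *SAM1* went from 0.934 and 0.938 to 0.836 and 0.825 (−1.56 σ, SE 0.15). *MET13*, whose abundance rose at this dose, went from 0.866 and 0.870 to 0.743 and 0.736 (−1.15 σ, SE 0.14). *SAM2* went from 0.925 and 0.928 to 0.827 and 0.850 (−0.99 σ, SE 0.14). *MET3* was called too (−0.78 σ, adjusted p = 0.0166), but not without azide lysate 1 (adjusted p = 0.0679) or mock lysate 2 (0.105). Thus 5 members had negative scores past the threshold and 0 had positive ones, against 19.9% and 16.1% of 4950 transcripts (36% either way). *MET16*, *MET14*, *MET10*, *MET2* and *MUP1* were not called.

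At 0.8% azide the median pSup of all transcripts dropped from 0.814 and 0.790 to 0.664 and 0.592, and 4 members were called, all with negative scores, against 10.9% negative and 10.5% positive of 5038 transcripts (21.4% either way). *SAM1* went from 0.893 and 0.908 to 0.671 and 0.600 (−2.20 σ, SE 0.33, adjusted p = 0.00484). *MET13* went from 0.830 and 0.813 to 0.636 and 0.521 (−1.42 σ, SE 0.27, adjusted p = 0.00962). *MET6* went from 0.839 and 0.842 to 0.635 and 0.537 (−1.79 σ, SE 0.41, adjusted p = 0.0154), which was lost without azide lysate 1 (adjusted p = 0.115) or 2 (0.149). *SAM2* scored −1.03 σ at adjusted p = 0.049, and this was lost without azide lysate 1 (0.231), azide lysate 2 (0.0698) or mock lysate 2 (0.238). *SAM1* and *MET13* thus had negative scores at both doses in every fit that left out a lysate. With the lysate number as a block, *MET2* was also called negative at 0.8% (adjusted p = 0.0463, limma).

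Polysome-seq gave the occupancy of each mRNA, the bound share of bound plus free after scaling to an *S. pombe* spike-in. The study's methods caution that condensed mRNA may sink in the gradient, so that occupancy is less certain in stressed cells. For stress they use ribosome association, bound over Total. The bound library pooled every ribosome-bound fraction for azide and ethanol. For heat it held heavier polysomes only, with monosomes and disomes in a library of their own. Under 0.8% azide the occupancy of *SAM2* was 0.951 and 0.921 in mock and 0.578 and 0.568 after azide. Its place among all mRNAs went from percentiles 97.8 and 96.8 to 11.7 and 11.3. *SAM1* went from 0.955 and 0.928 (percentiles 98.7 and 98.4) to 0.717 and 0.693 (35.5 and 31.3). *MET6* went from 0.945 and 0.921 (95.6 and 96.8) to 0.770 and 0.754 (50.8 and 48.9). *MET13* kept a high occupancy, at 0.920 and 0.905 in mock and 0.873 and 0.860 after azide, and *MET10* had 0.867 and 0.870 against 0.821 and 0.828. The median of all mRNAs was 0.871 and 0.849 in mock and 0.768 and 0.758 after azide.

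Ribosome association, in contrast, was called for 0 of 10 members under azide (edgeR, 2 at an unadjusted p under 0.05), where 16.2% of 5711 transcripts were called. The unadjusted threshold was passed by 1696 of these transcripts. The log2 changes were −0.09 for *SAM2*, −0.09 for *SAM1* and 0.10 for *MET6*. When the bound library was set against the Free library instead, a choice made after the occupancies had been seen, 3 members were called lower and 4 higher against 29.1% and 43.8% of 5772 transcripts (73% either way), and the median over all transcripts was a log2 of 0.32. *SAM2* was then lower by a log2 of −2.39 (SE 0.21, adjusted p = 9.91e-07), *SAM1* by −1.68 (SE 0.19, adjusted p = 7.08e-06) and *MET6* by −1.05 (SE 0.20, adjusted p = 0.000469). *MET2* (0.78), *MET10* (0.60), *MET3* (0.46) and *MET13* (0.40) were higher. The direction for *MET6* therefore depends on the denominator.

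**Figure D4:**
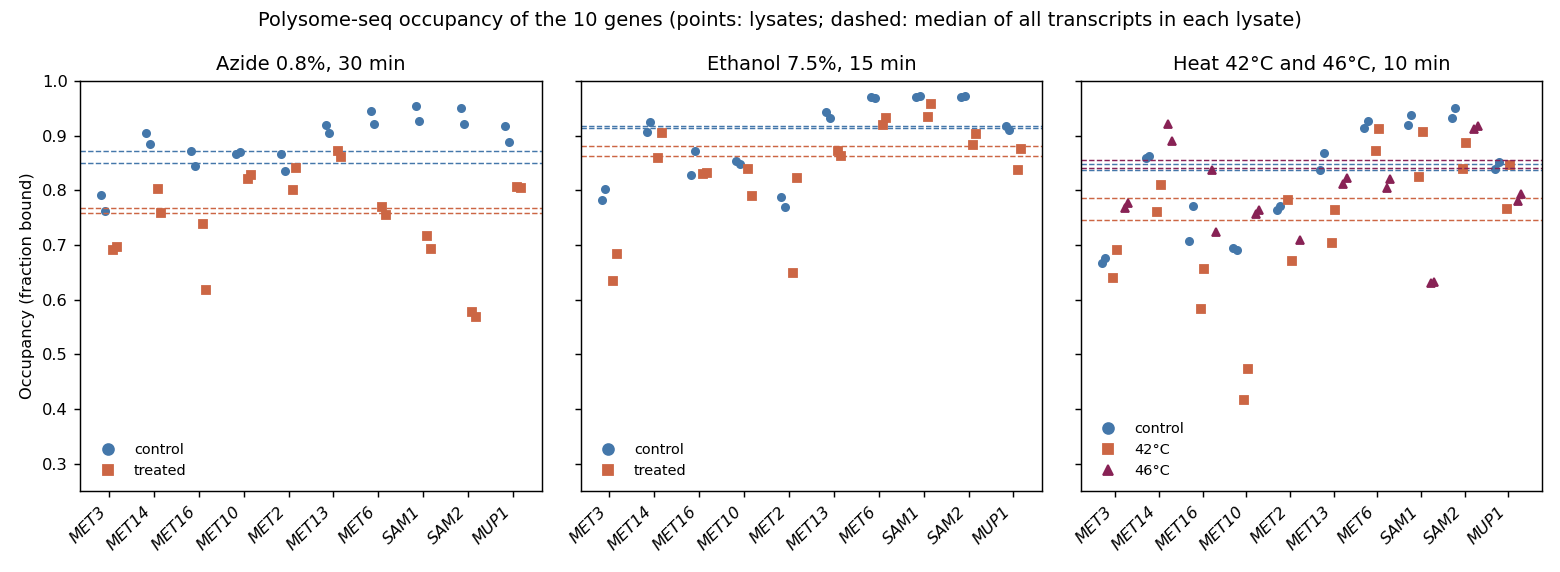
Occupancy of each member in every Polysome-seq lysate under 0.8% azide, 7.5% ethanol and heat, with the median of all transcripts of each lysate as dashed lines. *SAM2* fell to 0.578 and 0.568 under azide, *SAM1* to 0.631 and 0.633 at 46°C and *MET10* to 0.417 and 0.473 at 42°C.

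The change of the permease in ethanol differed in sign between doses. *MUP1* had 116.8 and 119.8 CPM in the mocks shared by 5% and 10% ethanol. It had 22.2 and 20.6 CPM at 5%, a 5.52-fold fall (log2 −2.47, SE 0.07, adjusted p = 3.26e-11), and 201 and 192 CPM at 10%, a rise (log2 0.73, SE 0.05, adjusted p = 6.1e-07). The direct contrast of 10% with 5%, added after these values had been seen, gave a 9.17-fold higher level at 10% (log2 3.20, SE 0.06, adjusted p = 2.98e-12). At 15%, in another experiment, *MUP1* went from 125 and 121 CPM to 174 and 176 CPM (log2 0.50, SE 0.05). At 7.5% it had 128 and 114.99 CPM in mock and 109.7 and 89.4 CPM in ethanol (log2 −0.29, adjusted p = 0.0314), a call lost without mock lysate 1 (adjusted p = 0.163) or ethanol lysate 2 (0.0763).

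*MET13* was the member that fell at all 4 ethanol doses. It had 385 and 420 CPM in mock and 214 and 249 CPM at 5% (log2 −0.80, SE 0.08), and 246 and 276 CPM at 10% (log2 −0.63, SE 0.08). At 7.5% it went from 322 and 315 CPM to 141 and 140 CPM (log2 −1.18, SE 0.06) and at 15% from 272 and 291 CPM to 156 and 182 CPM (log2 −0.73, SE 0.06). *MET6*, which acts next, had 1904 and 2353 CPM in the shared mocks, 1212 and 1222 CPM at 5% (log2 −0.81) and 2774 and 3241 CPM at 10% (log2 0.50). The difference between these doses was itself called (log2 1.30, SE 0.10, adjusted p = 9.81e-08). *MET6* fell at 7.5% (log2 −0.68) and at 15% (log2 −0.31, adjusted p = 0.000208, but 0.0866 with DESeq2).

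*SAM1* rose at 7.5%, 10% and 15% ethanol (log2 0.68, 0.83 and 0.48), while its value of 0.22 at 5% was lost without mock lysate 1 (adjusted p = 0.0788) or ethanol lysate 2 (0.0509). *SAM2* fell at 5% (267 and 311 CPM to 222 and 198 CPM, log2 −0.46) and at 15% (log2 −0.19), rose at 10% (394 and 415 CPM, log2 0.49) and was not called at 7.5% (log2 −0.07). Among the early genes, *MET16* went from 5.70 and 4.78 CPM to 11.9 and 13.3 CPM at 5% (log2 1.27, SE 0.16) and rose by 0.88 at 7.5%. *MET3* rose by 0.77 at 5% and by 0.41 at 7.5%. *MET14* went from 9.98 and 10.6 CPM to 20.5 and 23.2 CPM at 7.5% (log2 1.08, SE 0.12) and rose by 0.69 at 15%. *MET10*, in contrast, fell at 5% (log2 −0.51) and 7.5% (log2 −0.61). *MET2* had 0.514 and 0.229 CPM in the shared mocks and 1.87 and 1.37 CPM at 10% (log2 2.14, SE 0.44, adjusted p = 0.0016), resting on 6 counts in the lowest library. Its call at 15% (log2 1.27, adjusted p = 0.0305) was lost in every fit that left out a lysate (adjusted p 0.0534 to 0.256) and with DESeq2 (0.287).

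At 5, 7.5, 10 and 15% ethanol, 3, 4, 5 and 4 members rose and 5, 4, 1 and 3 fell. The shares of all transcripts called were 72.8% at 5% (33.8% higher, 39% lower), 58.6% at 7.5% (29.2% and 29.4%), 53.6% at 10% (26.9% and 26.7%) and 23.2% at 15% (13.1% and 10.1%). Between 5% and 10%, 6 members were higher and 2 lower at 10%, against 39.2% and 39.6% of 5663 transcripts (78.8% either way). Of these, *MET2* was lost with DESeq2 (adjusted p = 0.0576), without 10% lysate 1 (0.0964) and without 5% lysate 2 (0.0859), while *MET13* became called without either of these lysates (0.0355 and 0.00929). In the pathway list at 5%, 17 of 39 genes rose and 12 fell. *PDC6*, a pyruvate decarboxylase isozyme poor in sulfur-containing residues, went from 1.17 and 1.57 CPM to 27.04 and 30.5 CPM (log2 4.37), ahead of *MUP3* (2.37) and the sulfite exporter gene *SSU1* (2.28). *MET8* (−1.53), *ADO1* (−1.20) and *MET30* (−1.03) had the largest falls. The separate Total libraries of the 7.5% Polysome-seq experiment had 3 members higher (*MET3*, *MET14*, *MET16*) and 5 lower, against 30.5% and 29.4% of 5638 transcripts (59.8% either way). There the call of *MET16* (log2 0.65) was lost without ethanol lysate 2 (adjusted p = 0.0517) and that of *SAM2* (−0.37) without ethanol lysate 1 (0.119) or mock lysate 2 (0.126), and *SAM1* was not called (log2 0.05).

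Sedimentation in ethanol separated *MUP1*, *SAM1* and *MET13*. At 15% the median pSup of all transcripts dropped from 0.917 and 0.898 to 0.375 and 0.363. *MUP1* went from 0.908 and 0.861 to 0.517 and 0.539, a positive escape score of 2.54 σ (SE 0.26, adjusted p = 1.04e-05). *MET13* went from 0.916 and 0.902 to 0.336 and 0.296 (−0.78 σ, SE 0.16, adjusted p = 0.00169). *SAM1* scored 0.54 σ (adjusted p = 0.0193, but 0.219 without mock lysate 1). These were the 3 members called, against 46.8% of 5018 transcripts (23.6% positive, 23.1% negative).

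At 7.5% ethanol, *SAM1* stayed in the supernatant, with pSup of 0.920 and 0.928 in mock and 0.927 and 0.921 in ethanol (1.38 σ, SE 0.21, adjusted p = 2.22e-07). *MET13* went from 0.878 and 0.891 to 0.723 and 0.669 (−1.75 σ, SE 0.21, adjusted p = 3.06e-10). *MET10* scored −0.89 σ (adjusted p = 0.00123, but 0.09 without mock lysate 1). *SAM2* scored 0.73 σ, which was lost without mock lysate 2 (0.084) or ethanol lysate 1 (0.0526), and *MET6* scored 0.67 σ (adjusted p = 0.0483), lost without mock lysate 2 (0.136), ethanol lysate 1 (0.168) or ethanol lysate 2 (0.327). Of all 5054 transcripts, 52.8% were called (29% positive, 23.8% negative). At 10%, *SAM1* (0.79 σ) and *MET3* (1.15 σ) were called, both positive, where 12.1% of transcripts were called positive and 11.4% negative (23.4% either way), *MET3* not without mock lysate 1 (0.0654) or ethanol lysate 2 (0.104). At 5%, *MET13* alone was called (−0.70 σ, where 1.99% of transcripts were called negative, 1.35% positive and 3.34% either way), and in no fit that left out a lysate (adjusted p 0.0588 to 0.23). Between 10% and 5%, 5 members had positive scores past the threshold, against 15.2% of transcripts positive and 14.5% negative (29.7% either way). *MET3* (0.803 and 0.827 at 5%, 0.741 and 0.790 at 10%, 1.29 σ, SE 0.26) and *SAM1* (0.72 σ) were called in every fit that left out a lysate. *SAM2* (0.82 σ) was lost without 10% lysate 2 (adjusted p = 0.087). *MET10* (0.64 σ) and *MUP1* (0.96 σ) were lost without 10% lysate 1 (0.0771 and 0.193), 10% lysate 2 (0.183 and 0.128) or 5% lysate 2 (0.285 and 0.272). *MET6* was called positive without 10% lysate 1 (0.02).

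For ribosome association at 7.5% ethanol, an unadjusted p under 0.05 (edgeR) was reached by 0 of 10 members and 985 of 5661 transcripts. After adjustment 0 of 10 members were called, where 1.91% of transcripts were. With the Free library as denominator 2 of 10 were, *SAM2* (log2 −1.34, adjusted p = 0.00101) and *MET6* (−0.66, adjusted p = 0.0212), against 42.8% of transcripts.

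Heat gave different answers in its experiments. In the Sed-seq lysates, which were heated as cell pellets, no member passed at 42°C or 46°C (edgeR), where 7.23% and 0.44% of 5450 transcripts were called. At an unadjusted p under 0.05, 2 and 1 of 10 members passed, against 1231 and 320 of these transcripts. *MET6* had 446 and 431 CPM at 30°C, 412 and 420 CPM at 42°C and 442 and 404 CPM at 46°C. With the lysate number as a block, which pairs these samples, *MET13* was called at 42°C (25.5 and 30.8 CPM to 33.5 and 37.9 CPM, log2 0.34, adjusted p = 0.0314) and *MUP1* at 46°C (log2 0.41, adjusted p = 0.0448). Without 46°C lysate 1, *MUP1* was also called with no block (log2 0.67, adjusted p = 0.000319). The spike-in lysates gave 3 members higher at 46°C, against 13.8% higher and 14.2% lower of 5658 transcripts (28% either way). Of these, *MET10* (69.4 and 72.2 CPM to 84.7 and 80.9 CPM, log2 0.23, adjusted p = 0.000639) was called in every fit that left out a lysate. *MUP1* (log2 0.15) was lost without 30°C lysate 2 (adjusted p = 0.093) or 46°C lysate 2 (0.0752) and with DESeq2 (0.0521), and *SAM2* (log2 0.10) without any one lysate (0.0538 to 0.237).

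The Polysome-seq cells were collected on a filter and moved into warm medium, and there *SAM1*, *SAM2* and *MET6* fell at 42°C. *SAM2* had 648 and 612 CPM at 30°C and 128 and 156 CPM at 42°C (log2 −2.15, SE 0.13, adjusted p = 9.59e-07). *SAM1* went from 194 and 191 CPM to 33.2 and 53.9 CPM (log2 −2.15, SE 0.23) and *MET6* from 1897 and 1978 CPM to 426 and 618 CPM (log2 −1.89, SE 0.18). *MET2* rose from 1.83 and 1.78 CPM to 8.30 and 6.16 CPM (log2 2.00, SE 0.24). *MET10* (log2 0.65), *MET14* (0.61) and *MET3* (0.58) also rose, and *MET16* did (0.63) except without 42°C lysate 1 (adjusted p = 0.124). This made 5 higher, 3 lower and 2 not called, against 38.5% and 34.4% of 5711 transcripts (72.9% either way).

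At 46°C 2 of 10 members were called in these lysates. *SAM2* had 571 and 629 CPM and *MET10* 101.5 and 107.5 CPM, and neither passed. *MET2* was called higher (5.07 and 4.05 CPM, log2 1.31, adjusted p = 0.00448) and *MET6* lower (1301 and 1177 CPM, log2 −0.65, adjusted p = 0.0183), the latter not without 30°C lysate 1 (0.0919), 30°C lysate 2 (0.102) or 46°C lysate 2 (0.0646). *SAM1* had 162.9 and 108.9 CPM (log2 −0.51, adjusted p = 0.09), and was called without 46°C lysate 1 (0.00676). *MET14* (log2 −0.38, adjusted p = 0.0549) was called without 30°C lysate 2 (0.0421). Of all transcripts, 37.8% were called at 46°C (19.8% higher, 18% lower). The contrast of 46°C with 42°C, added after these values had been seen, was called for 3 members higher and 5 lower, against 32.3% and 34.6% of transcripts (66.9% either way). *SAM2* (log2 2.08, SE 0.13), *SAM1* (1.64, SE 0.23) and *MET6* (1.25, SE 0.17) were higher at 46°C, and *MET14* (−0.998), *MET16* (−0.92), *MET2* (−0.69), *MET10* (−0.58) and *MET3* (−0.40) were lower. The call of *MET3* was lost with DESeq2 (adjusted p = 0.0691) and without 42°C lysate 2 (0.0561), and that of *MET2* with DESeq2 (0.0853), without 42°C lysate 1 (0.215) and without 46°C lysate 2 (0.138). Both the means of heating and the cultures differed between the Sed-seq and Polysome-seq experiments and cannot be told apart.

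In the heat Sed-seq lysates most mRNA sedimented at 46°C. The transcriptome-wide median of pSup equalled 0.886 and 0.884 in the unheated lysates, 0.580 and 0.572 after 42°C and 0.201 and 0.218 after 46°C. *MET6* went from 0.927 and 0.918 at 30°C to 0.212 and 0.230 at 46°C (−1.54 σ, SE 0.23, adjusted p = 0.0164) and *MET13* from 0.906 and 0.899 to 0.157 and 0.199 (−1.35 σ, SE 0.25, adjusted p = 0.0237). Both were lost without 46°C lysate 1 (0.131 and 0.155) or 2 (0.0856 and 0.0746), and they were the 2 members called, against 6.49% negative and 6.77% positive of 4949 transcripts (13.3% either way). A further 3 members were called when a lysate was left out, *MET14* with a negative score (adjusted p = 0.0241 without 30°C lysate 1, and 0.0425 with the lysate number as a block), *MUP1* with a positive one (0.0188 without 30°C lysate 1) and *SAM1* with a negative one (0.00483 without 30°C lysate 2). At 42°C none was called (limma, where 2.26% of transcripts were), although *MET6* and *SAM1* were without 30°C lysate 2 (0.00524 and 0.0111, both negative). In the spike-in lysates at 46°C, *SAM2* was the member called, with a positive score (0.907 and 0.887 to 0.364 and 0.513, 0.89 σ, adjusted p = 0.00498), where 20.3% of 5068 transcripts were called positive and 17.4% negative (37.7% either way). It was lost without 46°C lysate 1 (0.0836) or 2 (0.108). *MET6* scored 0.55 σ there (adjusted p = 0.085), a sign opposite to that in the other heat experiment.

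*MET10* stood out in ribosome occupancy at 42°C. Its occupancy was 0.694 and 0.691 at 30°C (percentiles 7.8 and 6.7) and 0.417 and 0.473 at 42°C (percentiles 0.7 and 0.8), while all mRNAs had medians of 0.836 and 0.849 unheated and 0.746 and 0.787 after 42°C. Its ribosome association, here heavier polysomes over Total, fell by 0.84 on the log2 scale. It was the 1 member called, against 9.63% higher and 10.3% lower of 5724 transcripts (19.9% either way). The call was lost without 30°C lysate 1 (adjusted p = 0.117), 30°C lysate 2 (0.0795) or 42°C lysate 2 (0.0685), and when monosomes were counted as bound (log2 −0.11). Monosomes here means the pool of monosomes and disomes, whose counts were added to those of the heavier polysomes. At 46°C *SAM1* had the lowest occupancy of the members in both lysates (*MET2* had a value in 1 of them only). It went from 0.920 and 0.938 (percentiles 88.2 and 92.3) to 0.631 and 0.633 (3.1 and 2.4), when the median of all mRNAs was 0.842 and 0.855. Its ribosome association was not called (log2 −0.73).

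At 46°C ribosome association was called higher for 4 members and lower for 2, against 31.1% and 23.1% of transcripts (54.2% either way), with a median over all transcripts of 0.17. *MET14* (log2 1.097) and *MET3* (0.84) were higher in every fit that left out a lysate, but neither was called when monosomes were counted as bound (log2 0.57, adjusted p = 0.0869, and 0.09, adjusted p = 0.745). *MET16* (0.80) was lost without 30°C lysate 1 (adjusted p = 0.0697), 30°C lysate 2 (0.122) or 46°C lysate 1 (0.263) and with DESeq2 (0.0739), and *SAM2* (0.66) without 30°C lysate 1 (0.188), 30°C lysate 2 (0.0662) or 46°C lysate 1 (0.129). *MET13* was lower (−0.64), but not without 30°C lysate 2 (0.053), and *MUP1* (−0.37) was lost without any one lysate (0.0671 to 0.234). *MET10*, at log2 −0.40 and adjusted p = 0.0502, was called lower without 46°C lysate 2 (log2 −0.48, adjusted p = 0.0309), with DESeq2 (0.0308), with its size factors in edgeR (0.0289) and with monosomes as bound (log2 −0.89, adjusted p = 0.00496). With monosomes as bound, *MET16*, *MET13* and *MUP1* were lost too, so that *SAM2* and *MET10* were the members called. With the Free library as denominator 7 of 10 members were called at 46°C, against 51.2% of transcripts, and 5 at 42°C, against 38%. *SAM2* was then lower (log2 −1.05, adjusted p = 0.00109), as it was at 42°C (−0.71, against 0.25 over Total).

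Cycloheximide at 30°C moved members in both directions. *SAM1* went from 543 and 448 CPM to 250 and 166 CPM (log2 −1.25, SE 0.24), *SAM2* from 620 and 838 CPM to 291 and 352 CPM (log2 −1.18, SE 0.19) and *MET6* from 2946 and 3269 CPM to 1560 and 1599 CPM (log2 −0.98, SE 0.09). *MET10* rose from 89.7 and 92.9 CPM to 141 and 167 CPM (log2 0.75, SE 0.11), and *MET2* from 1.42 and 0.948 CPM to 3.04 and 3.95 CPM (log2 1.48, adjusted p = 0.0101, but 0.0952 with DESeq2), on as few as 4 counts. In all, 4 members rose and 5 fell, against 30.8% and 28.8% of 5650 transcripts (59.7% either way). The other 4 calls were lost in some of the fits that left out a lysate. They were *MET3* (log2 0.49, without mock lysate 1, adjusted p = 0.0638, and with DESeq2, 0.0855), *MET14* (0.79, without mock lysate 1, 0.168, or CHX lysate 2, 0.15), *MET13* (−0.33, without CHX lysate 1, 0.0741, or mock lysate 2, 0.0695) and *MUP1* (−0.46, without mock lysate 1, 0.135, or CHX lysate 2, 0.12). At 46°C, CHX against mock again had *MET6* (log2 −0.95), *SAM1* (−1.34) and *SAM2* (−1.24) lower and *MET10* higher (0.65), with 3 members higher and 5 lower against 28.3% and 27.5% of transcripts (55.8% either way). There *MET14* (log2 0.67, adjusted p = 0.000684) and *MET16* (0.64, adjusted p = 0.0254) were called with the lysate number as a block, which pairs these samples. The calls of *MET2* (without mock lysate 1, 0.0707, and with DESeq2, 0.104), *MET13* (without CHX lysate 1, 0.0655, or mock lysate 2, 0.0561) and *MUP1* (without mock lysate 1, 0.138, or CHX lysate 2, 0.105) were lost in some fits at 46°C. No member's escape was called under cycloheximide at 30°C (limma), where 0 of 4896 transcripts were called, and *MET2* had too few counts to be tested. At 46°C, CHX against mock, 0 of 9 tested members were called as well (0 at an unadjusted p under 0.05), where 1.76% of transcripts were. The unadjusted threshold was passed by 1026 of 4896 transcripts. Heat at 46°C in mock cells gave 1 call, *MET13* (0.833 and 0.853 to 0.168 and 0.169, −0.79 σ, adjusted p = 0.0499), where 4.15% of transcripts were called positive and 3.53% negative (7.68% either way). It was lost without 30°C mock lysate 1 (0.137) or 46°C mock lysate 1 (0.178) or 2 (0.171), while *MUP1* was called positive without 30°C mock lysate 2 (0.00887) and with the lysate number as a block (0.0253). Heat at 46°C under CHX called 0 of 9 members and 0% of transcripts (limma). At an unadjusted p under 0.05, 1 member and 916 of 4896 transcripts passed. *MUP1* was called positive there with the block (0.0314).

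Depletion of eIF3b, a core subunit of the initiation factor that recruits the small ribosomal subunit, moved all 10 members. *MET2* rose from 6.004 and 10.6 CPM to 66.7 and 68.5 CPM, an 8.13-fold rise (log2 3.02, SE 0.16, adjusted p = 4.02e-09). *MET10* went from 95.8 and 119 CPM to 422 and 395 CPM (log2 1.93, SE 0.10) and *MET16* from 8.58 and 7.67 CPM to 29.7 and 27.4 CPM (log2 1.82, SE 0.19). *MET3* (log2 0.94) and *MET14* (0.46) rose less. *SAM1* fell from 1029 and 934 CPM to 187 and 176 CPM (log2 −2.43, SE 0.09), *MET6* from 584 and 733 CPM to 314 and 332 CPM (log2 −1.03, SE 0.12) and *SAM2* by 0.67. The calls of *MET13* (log2 0.44) and *MUP1* (−0.41) were lost without depleted lysate 2 (adjusted p = 0.0933 and 0.274), and without mock lysate 1 (0.164) or mock lysate 2 (0.214), respectively. In all, 6 members rose and 4 fell, against 41.8% and 38.7% of 5736 transcripts (80.5% either way). Of 40 other pathway genes, 20 rose and 16 fell. *PDC6* went from 1.72 and 2.06 CPM to 46.7 and 51.3 CPM (log2 4.67), ahead of *SUL1* (3.81) and the sulfonate-using *JLP1* (3.51), while *SAH1* fell from 1839 and 1694 CPM to 219 and 219 CPM (log2 −3.01), with *CYS4* (−2.72) and *OPT1* (−1.91). This strain expressed *MET17*.

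Depletion of eIF4E, which binds the mRNA cap, lowered 6 members. *SAM1* went from 716 and 752 CPM to 156 and 139 CPM (log2 −2.32, SE 0.11), *SAM2* from 164 and 168 CPM to 41.9 and 27.4 CPM (log2 −2.28, SE 0.18) and *MET6* from 647 and 625 CPM to 163 and 118 CPM (log2 −2.19, SE 0.14). *MET2* fell by 1.96, *MET14* by 1.27 and *MUP1* by 0.87. *MET2* and *MET14* thus fell on losing eIF4E and rose on losing eIF3b, in different strains and experiments, and this difference was not tested. *MET10* rose from 107.9 and 95.9 CPM to 183 and 200 CPM (log2 0.91, SE 0.07). *MET16* was called higher (log2 0.55), but not without mock lysate 1 (adjusted p = 0.222), depleted lysate 1 (0.0501) or depleted lysate 2 (0.0941), nor with DESeq2 (0.163). *MET3* and *MET13* were not called, although *MET3* was without mock lysate 2 (0.0436) or depleted lysate 2 (0.0458) and *MET13* without depleted lysate 1 (0.00536). This made 2 higher and 6 lower, against 30.7% and 29.2% of 5515 transcripts (59.9% either way). *MET17*, intact in this strain, fell from 304 and 293 CPM to 76.1 and 53.9 CPM (log2 −2.21).

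**Figure D5:**
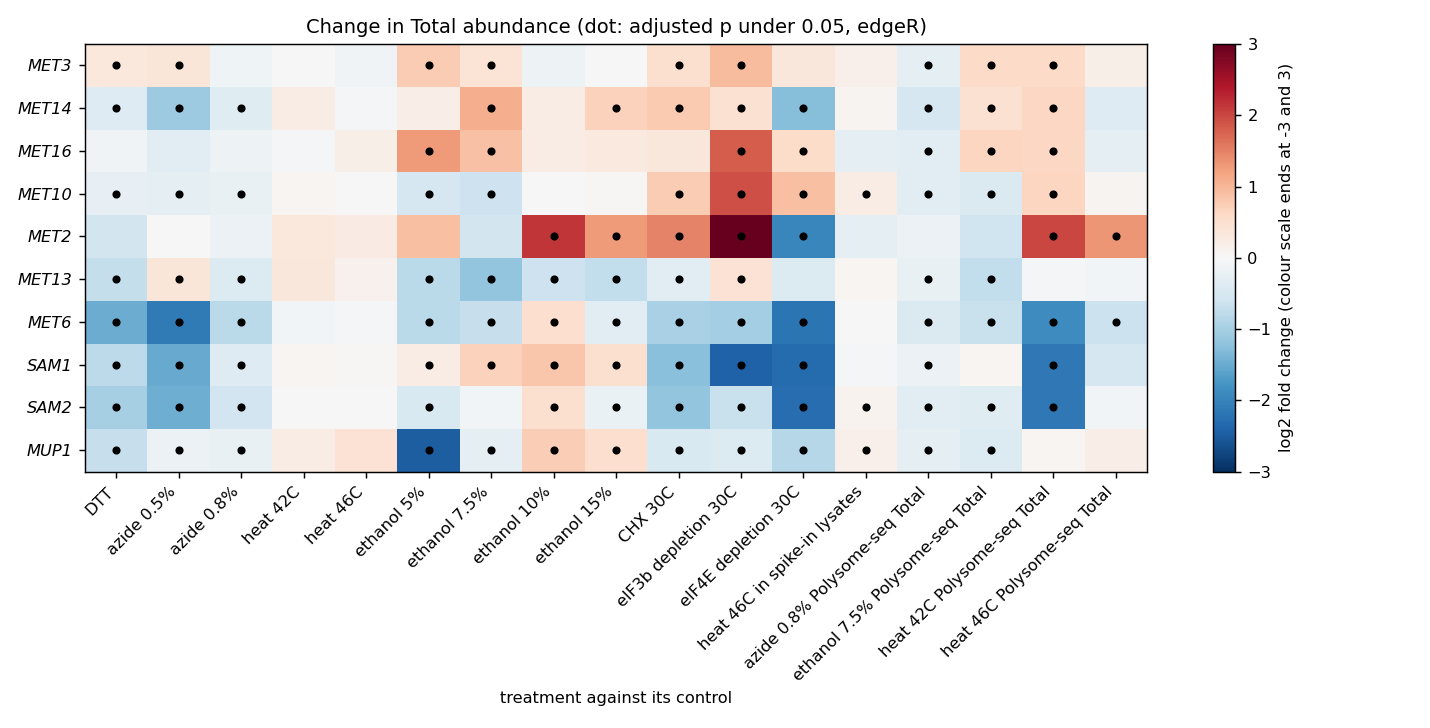
Log2 fold change in Total abundance of each member (rows) in 17 treatment comparisons (columns), with a dot where the adjusted p was under 0.05 (edgeR). *MET6* was called lower in 13 columns and higher in 1, and *MET2* was called higher in 6 and lower in 1.

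After eIF3b depletion the median pSup of all transcripts went from 0.822 and 0.784 to 0.642 and 0.567. *SAM1* went from 0.921 and 0.904 to 0.681 and 0.554 (−1.97 σ, SE 0.16, adjusted p = 5.91e-07) and *MET6* from 0.860 and 0.828 to 0.540 and 0.505 (−1.76 σ, SE 0.13, adjusted p = 2.6e-07). *MET13* was also called (−0.59 σ, adjusted p = 0.0311), but in no fit that left out a lysate (0.064 to 0.145), and *MET3* (0.59 σ, adjusted p = 0.0732) was called with a positive score without mock lysate 2 (0.0443). The 3 calls, all negative, compare with 22.2% negative and 18.8% positive of 4940 transcripts (41% either way). After eIF4E depletion *MET10* (−0.72 σ) and *MET6* (−0.57 σ) were called, against 9.19% negative and 4.02% positive of 4906 transcripts (13.2% either way), and neither was called in any fit that left out a lysate (adjusted p 0.0806 to 0.274).

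Heat in the depletion experiments gave no called change in a member's Total level, with 0 of 10 past the edgeR threshold at 42°C or 46°C. The shares of transcripts called at these temperatures were 0.976% and 1.38% in mock and 1.24% and 0.837% in depleted cells of the eIF3b strain, and 2.05% and 3.3% in mock and 4.21% and 6.69% in depleted cells of the eIF4E strain. At 46°C in the cycloheximide experiment 0 of 10 were called as well, where 0.991% of transcripts were called without the drug and 0.142% with it. With the lysate number as a block, which pairs the samples of the eIF3b experiment, *MET6* was called at 42°C in depleted cells (log2 0.27, adjusted p = 0.00666). No member had a heat effect called different between treated and mock cells in the cycloheximide, eIF3b or eIF4E experiments. For the interaction terms the members' lowest adjusted p was 0.787 (edgeR), and 0 had an unadjusted p under 0.05. Over all transcripts, 232 to 389 passed the unadjusted threshold in a term.

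Heat changed the escape scores of several members in eIF3b-depleted cells, where all transcripts had a median pSup of 0.642 and 0.567 without heat and of 0.0688 and 0.0746 after 46°C. *MET6* had pSup of 0.540 and 0.505 in depleted cells at 30°C, 0.287 and 0.373 at 42°C and 0.0981 and 0.113 at 46°C. At 46°C the scores relative to depleted cells at 30°C were 1.95 σ for *MET6*, 1.49 σ for *MET3*, 1.29 σ for *SAM1*, 1.25 σ for *MET10* and 0.99 σ for *SAM2*, and −1.55 σ for *MET14*. These 5 positive and 1 negative calls compare with 27.2% and 27.9% of transcripts (55.1% either way), and each was called in every fit that left out a lysate. At 42°C the same 6 members were called in the same directions, against 22.8% positive and 20.8% negative (43.6% either way). There *MET6* (1.72 σ), *MET10* (1.38 σ) and *SAM2* (1.14 σ) were called whichever lysate was left out. *MET3* (0.82 σ) was lost without depleted 42°C lysate 1 (adjusted p = 0.126) or 30°C lysate 2 (0.105), *SAM1* (0.51 σ) without 42°C lysate 1 (0.0741), 42°C lysate 2 (0.0823) or 30°C lysate 2 (0.273), and *MET14* (−0.78 σ) without any one lysate (0.081 to 0.251).

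In mock cells of the eIF3b strain the scores of *SAM1* were negative. They were −0.86 σ at 42°C, the 1 member called against 6.32% negative and 9.43% positive (15.7% either way), and −0.77 σ at 46°C, both in every fit that left out a lysate. At 46°C, where 14.4% of transcripts were called positive and 10.7% negative (25.2% either way), *MUP1* was positive (0.798 and 0.745 to 0.332 and 0.302, 0.94 σ) and *MET6* negative (−0.47 σ). *MET6* was lost without 30°C mock lysate 1 (adjusted p = 0.0871) or 2 (0.0553) or 46°C mock lysate 2 (0.0939), and *MET2* was called negative without 46°C mock lysate 1 (0.00785). In mock cells of the eIF4E strain *SAM1* was the 1 member called at 42°C (−0.62 σ), against 7.83% negative and 11.4% positive (19.2% either way), and it was lost without 30°C mock lysate 1 (0.159) or 42°C mock lysate 1 (0.0912) or 2 (0.0609). At 46°C, where 16.6% were called positive and 12.2% negative (28.8% either way), *MUP1* was positive in every fit (0.713 and 0.766 to 0.276 and 0.387, 0.90 σ), and *SAM1* (−0.48 σ) was lost without 30°C mock lysate 1 (0.305) or 46°C mock lysate 2 (0.24).

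In eIF4E-depleted cells *SAM2* was called at 42°C (0.825 and 0.832 to 0.625 and 0.568, 0.80 σ), against 18.3% positive and 15% negative (33.3% either way), but not without 42°C lysate 2 (adjusted p = 0.0543). At 46°C, *SAM2* (0.72 σ), *MET6* (0.52 σ) and *MET2* (2.10 σ, on as few as 22 counts) were positive, against 20.8% positive and 17.5% negative (38.4% either way). Each was lost without some lysate. These were 30°C lysate 1 (0.0664) or 46°C lysate 2 (0.0645) for *SAM2*, 46°C lysate 1 (0.676) or 30°C lysate 2 (0.193) for *MET6*, and 46°C lysate 1 (0.0959), 46°C lysate 2 (0.123) or 30°C lysate 2 (0.314) for *MET2*. *MUP1* was called positive without 46°C lysate 2 (0.0167). The difference between mock and depleted cells was not tested for pSup.

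Across 44 BY4741 Total lysates of the Sed-seq experiments, each expressed relative to the control mean of its own experiment, *SAM2* and *MET6* varied most alike among the member pairs (Pearson r = 0.93), followed by *SAM2* and *SAM1* (0.85). *MUP1* and *MET3* ran opposite (−0.75), as did *MET13* and *MET16* (−0.64). The next lowest pairs were *MET6* and *MET3* (−0.64), *SAM2* and *MET3* (−0.60) and *MUP1* and *MET16* (−0.60). Outside the pathway, the 5 of 2739 transcripts with a pattern most like the members' mean were *SMI1* (r = 0.92), *CRH1* (0.90), *MNN1* (0.88), *ERG11* (0.88) and *RPL9B* (0.87). The members' mean followed *MET6* (r = 0.88) and *SAM2* (0.79) more than *MET16* (0.13), *MET13* (0.06) or *MET3* (−0.45). Each member was itself part of that mean. *MET3*, *MET14*, *MET16* and *MET2* did not reach 100 counts in every library, which was required of the 2739 transcripts. These values describe lysates that share treatments, controls and sequencing runs.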

How the data were processed

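The authors trimmed reads with Trim Galore 0.6.10, mapped them with STAR 2.7.10b, removed duplicates with UMI-tools 1.1.4 where libraries carried molecular identifiers, and quantified stranded reads with kallisto 0.48.0 on R64-3-1 coding sequences. The heat Sed-seq libraries were single-end, the others paired-end. The deposited estimated counts were rounded for count tests, and the deposited TPM were used for unstressed levels only. The authors' pSup and occupancy, deposited as fractions, were used as given, with their transcript lengths. Total libraries of each experiment were fitted together with edgeR 4.0.16 (quasi-likelihood, TMM, filterByExpr, R 4.3.3). Ribosome association was the interaction of treatment with Poly against Total. For heat, Poly left out the pooled monosomes and disomes, so these values are not the same measure as those for azide and ethanol. The log-odds of pSup, for transcripts with 20 or more summed supernatant and pellet counts throughout an experiment, had the mean of transcripts within 0.02 of the log length range subtracted (windows under 10 transcripts were dropped) and were tested with limma 3.58.1. Length was known for 5137 of the 5906 transcripts. P-values were adjusted over all transcripts (Benjamini-Hochberg, threshold 0.05). DESeq2 1.42.0 was an alternative. Each of these tests was tested on simulated data. With 2 lysates a group, an exact permutation test could not reach the threshold (the study describes its replicates as grown separately).

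The rule for named genes took all 10 members. Of 40 other pathway genes, at most 3 with the largest rise and 3 with the largest fall among those called were named, with *MET17* as a check of genotype. The members and lists were chosen with earlier results of these data known. The contrasts of 10% against 5% ethanol and of 46°C against 42°C in Polysome-seq, the Free library as denominator, and the fits that left out a lysate for these contrasts, for CHX at 46°C and for heat within the CHX and depletion experiments were added after the values had been seen. Same-numbered lysates deviated together in Total for heat Sed-seq (r = 0.14 to 0.17 over 3 pairs of groups), cycloheximide (0.36 to 0.67 over 6) and eIF3b (0.12 to 0.35 over 15), so that the numbers pair these samples. They did so too for 0.8% azide (0.22 over 1 pair) and the spike-in lysates (0.21 over 1). For eIF4E, 10 of 15 pairs of groups were over 0.1 (0.002 to 0.33). The main tests did not use the pairing. Supernatant libraries held 1392070 to 34578941 counts and pellet libraries 4555315 to 28987151. Promoter motifs and sequences were not analysed here.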

Additional observations from a re-analysis of the deposited data

How the results depend on the processing

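The results are counts of members called and the change of each member. No change called in the main tests or in an alternative turned direction in Total abundance or pSup. With the replicate block, 1 member instead of 0 was called in Total abundance at 42°C and 1 instead of 0 at 46°C (heat Sed-seq), and with only the compared groups fitted 1 instead of 0 at 42°C. The block also gave 0 instead of 1 for pSup at 5% ethanol, where a number does not pair the lysates, and 1 instead of 0 for ribosome association under azide. In the eIF4E experiment same-numbered lysates deviated together in some pairs of groups only. There, in mock against depleted cells, *MET13* became called in abundance (edgeR, adjusted p = 0.00628), while under 0.5% azide *MUP1* lost its call (0.0607). Over all comparisons the block added 7 abundance calls, 5 pSup calls and 2 of ribosome association, and removed 1, 4 and 0. Between 10% and 5% ethanol pSup calls were 3 instead of 5 with the block and also without the limma trend. Without the variance trend in limma, pSup calls were 0 instead of 2 for eIF4E depletion, 0 instead of 1 at 5% ethanol and 3 instead of 5 at 7.5%, and with bins of 100 transcripts 0 instead of 1 at 5% ethanol. Counting monosomes as bound gave 0 instead of 1 at 42°C and 2 instead of 6 at 46°C, of which *MET10* was not among the 6. The pool of monosomes and disomes was added without scaling for depth, so its weight varied between lysates. The Free library in place of Total, chosen after seeing the data, gave 7 instead of 0 under azide, 2 instead of 0 in ethanol, 5 instead of 1 at 42°C and 7 instead of 6 at 46°C, and turned *MET6* (azide −1.05, ethanol −0.66), *MET13* (azide 0.40) and *SAM2* (42°C −0.71, 46°C −1.05). The cause was not tested.

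Leaving out 1 lysate at a time gave these ranges of called members. In Total abundance they were 0 to 1 at 46°C (main 0), 1 to 3 at 46°C in Polysome-seq (2), 4 to 5 under 0.8% azide (7) and 1 to 2 in the spike-in lysates (3). In pSup they were 0 to 2 at 42°C (0), 0 to 4 at 46°C (2), 2 to 5 at 15% ethanol (3), 1 to 3 at 10% (2), 3 to 4 at 7.5% (5), 0 to 0 at 5% (1), 2 to 4 under 0.8% azide (4), 0 to 0 for eIF4E depletion (2) and 0 to 5 in the spike-in lysates (1). In ribosome association they were 0 to 1 at 42°C (1) and 2 to 6 at 46°C (6). The other comparisons with a control stayed within 1.5 times, apart from heat within the depletion and cycloheximide experiments, where the lost calls are given with the results. DESeq2 lost 16 of the members' abundance calls. Depth limited *MET2*, which had 4 to 325 counts in the 22 unstressed BY4741 Total libraries outside the heat Sed-seq experiment.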
